A study of Mus musculus with 12 samples.

Results

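Livers of Lix1l knockout (KO) mice on a high-fat diet (HFD) were set against livers of wild-type (WT) littermates on a low-fat diet (LFD), to describe how far the knockout on HFD resembled the lean wild-type liver and where it departed from it. The comparison rested on 3 KO HFD libraries, from animals 1, 5 and 6, and 3 WT LFD libraries, from animals 4, 7 and 8, which are 6 of the 12 libraries of the study. The other 6 libraries come from WT HFD and KO LFD livers, 3 of each, and their values are given beside the main ones. Every animal was 6 weeks old when its diet began and received it for 12 weeks, and each frozen liver gave 1 library of polyadenylated RNA. The 2 groups compared differ in both genotype and diet, so the part of either factor in a difference between them cannot be told apart without the other groups. The study asks how LIX1L affects non-alcoholic steatohepatitis (NASH), the inflamed form of fatty liver disease that diets rich in fat bring on in mice. The sources used here do not say which stretch of Lix1l the deletion removed. Of the 56107 genes in the deposited table, 11078 reached 1 TPM (transcripts scaled to gene length and library total) in at least 3 of the 6 libraries and were tested. TPM sums to the same total in each library and the table holds no read counts, so the depth of the libraries is unknown.

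The liver burns fatty acids in mitochondria and peroxisomes, stores them in lipid droplets and exports them in lipoproteins. Hepatocytes near the portal vein carry most of the urea cycle, amino acid breakdown and gluconeogenesis, and those near the central vein carry glutamine synthesis and much of drug metabolism. Interferons switch on a set of antiviral and inflammatory genes through factors that include STAT2 and IRF9 and bind repeats of GAAA, and many lysosomal genes carry the sequence CACGTG, to which the transcription factor TFEB binds. LIX1L is a protein reported to bind RNA, and CD36, named in the title of the series, takes up fatty acids at the plasma membrane.

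KO HFD livers had lower levels of genes for burning fatty acids, for breaking down amino acids and for lysosomes than WT LFD livers, and higher levels of interferon-stimulated genes and of endothelial markers. Of 26 genes of mitochondrial fatty acid oxidation and ketogenesis, 18 fell and 0 rose, of 33 genes of the urea cycle and amino acid breakdown 20 fell and 0 rose, and of 29 lysosomal genes 16 fell and 2 rose. Of 29 interferon-stimulated genes 13 rose and 0 fell, and of 18 endothelial markers 9 rose and 0 fell. Over all tested genes, 10.7% were called higher and 18.7% lower, 29.4% in all, at an adjusted p below 0.05 from limma. The counts of each list are to be read beside these shares. A list called at shares near or below them is not set apart by its calls. Changes are given on the log2(TPM + 1) scale as KO HFD minus WT LFD, with the SE after the ± sign, a scale on which the change of a gene at low level comes out too small. A gene below 1 TPM in every library of one group was tested only if all 3 libraries of the other reached 1 TPM. For such genes the filter itself fixed that the groups did not overlap. Levels are in TPM, as mean ± SD with n = 3 a group, or for each library in the order of animals 1, 5 and 6 for KO HFD and 4, 7 and 8 for WT LFD. In whole liver, fewer cells of a type and less RNA per cell cannot be told apart. The labels number the animals and say no more of them, so p-values measure the spread between these libraries.

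Short stretches of the promoters of genes at the head of the interferon and lysosome results are shown first, with the motif matches in capitals. Sequences are from RefSeq on GRCm38.p6, read 5′ to 3′ along the gene's strand. The window searched ran from 250 bases before to 50 bases after the start of each gene. The motif GAAANNGAAA, searched on both strands with overlapping matches counted, was in 16 of the 25 interferon-stimulated genes that have such a window (64.0%) and in 3.44% of all 32851 windows. Stat2, at chr10:128270261-128270300 on the + strand, Ifit1, at chr19:34640770-34640828 on the + strand, Gbp3, at chr3:142559984-142560029 on the + strand, and Isg15, at chr4:156200860-156200911 on the - strand, are shown because all of them rose. The matches lie 222 bases before the start in Stat2, 104 and 85 in Ifit1, 45 and 39 in Gbp3, and 78 to 66 in Isg15.
Stat2: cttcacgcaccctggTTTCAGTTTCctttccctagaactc
Ifit1: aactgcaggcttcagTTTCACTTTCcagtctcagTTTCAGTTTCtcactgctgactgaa
Gbp3: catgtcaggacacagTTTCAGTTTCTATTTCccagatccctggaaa
Isg15: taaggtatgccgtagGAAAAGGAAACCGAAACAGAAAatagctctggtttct

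The motif CACGTG, which reads the same on both strands, was in 10 of the 24 lysosomal genes with a window (41.7%) and in 7.15% of all windows. Ctsl, at chr13:64370736-64370770 on the - strand, with a match 236 bases before the start, and Lamp1, at chr8:13159085-13159166 on the + strand, with 4 matches from 61 to 15 bases before it, are shown because both fell. A match is a description of the window and not a bound site.
Ctsl: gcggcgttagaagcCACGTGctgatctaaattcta
Lamp1: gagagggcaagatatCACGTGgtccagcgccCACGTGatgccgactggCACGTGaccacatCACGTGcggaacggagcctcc

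Rny3, a small cytoplasmic Y RNA of 102 bases, is shown whole because it was listed at 0 TPM in every library outside the KO HFD group. It lies at chr6:47781624-47781725 on the + strand (GENCODE M21, GRCm38).
Rny3: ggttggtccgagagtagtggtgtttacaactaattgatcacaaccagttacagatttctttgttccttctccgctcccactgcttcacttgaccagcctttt

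Library 1 of the KO HFD group stood apart from the rest. Mitochondrially encoded genes held 22.6%, 12.6% and 10.9% of TPM in the KO HFD libraries, against 9.30%, 11.6% and 11.4% in WT LFD libraries (exact 2-sided permutation p = 0.3). Pseudogenes held 14.5%, 9.90% and 8.71%, against 6.94%, 8.33% and 7.87%. Library 1 also had the fewest genes at 1 TPM, 10265, while the other 11 libraries had 10589 to 11353. The part of these shares in the results was not tested. Values without library 1 are given below for many results in which leaving it out turned a direction, ended a call or moved a count by more than 1.5 times. Counts of 1 or 2 members can move on leaving out a single library, and not every such move is given.

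Lix1l itself did not separate the groups. It was at 1.92, 0.15 and 1.38 TPM in KO HFD livers, against 0.720, 0.580 and 1.08 TPM in WT LFD livers. The KO HFD values spanned those of WT LFD, with the lowest and the highest value of the 6 both in the knockout group. The log2 change was 0.17 ± 0.31 (adjusted p = 0.706, exact permutation p = 0.6), and its sign turned when limma weighted the libraries by their quality (-0.55). The ratio of the group means was 1.45, and 0.964 without KO HFD library 1. Lix1l (ENSMUSG00000049288, chromosome 3, 96601149 to 96626171, + strand, GRCm38) is counted as a gene total, which can hold transcript from outside a deleted part. The genotype therefore rests on the labels alone, and KO stands for labelled knockout throughout.

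**Figure D1:**
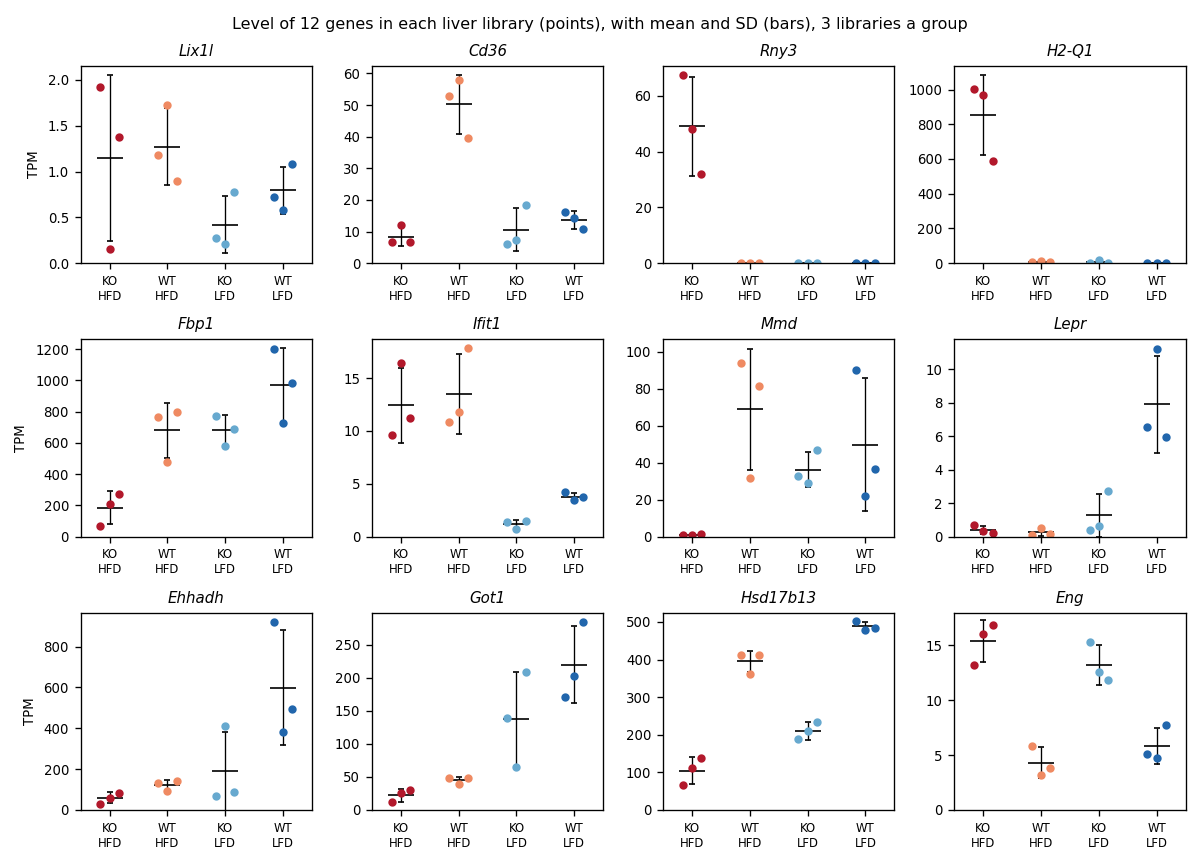
TPM of 12 genes in each library (points), with the group mean (line) and SD (bar), for KO HFD, WT HFD, KO LFD and WT LFD livers, 3 libraries a group and each panel with its own axis from 0. Lix1l overlaps between the groups, Rny3 is above 0 only in KO HFD libraries, and Fbp1, Ehhadh, Got1, Hsd17b13 and Eng in KO HFD livers lie outside the range of WT LFD livers.

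Taken over all tested genes, each KO HFD library was farther from the WT LFD libraries than the libraries of either group were from each other. Spearman correlations across the 11078 genes were 0.929 to 0.952 within KO HFD and 0.928 to 0.951 within WT LFD, and 0.797 to 0.890 over the 9 pairs between them. The KO HFD libraries were about as far from the group on the same diet and from the group labelled with the same genotype, with correlations of 0.804 to 0.895 with WT HFD and 0.812 to 0.899 with KO LFD libraries. The WT HFD libraries, by contrast, had correlations of 0.917 to 0.953 with WT LFD libraries. The root mean square difference on the log2 scale ran from 0.801 to 1.20 between KO HFD and WT LFD libraries, and from 0.571 to 0.689 within WT LFD. These are correlations across genes, which are not independent replicates, and pairs share libraries. Library 1 gave the lowest correlation with WT LFD, and libraries 5 and 6 stood outside the range within groups as well.

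**Figure D2:**
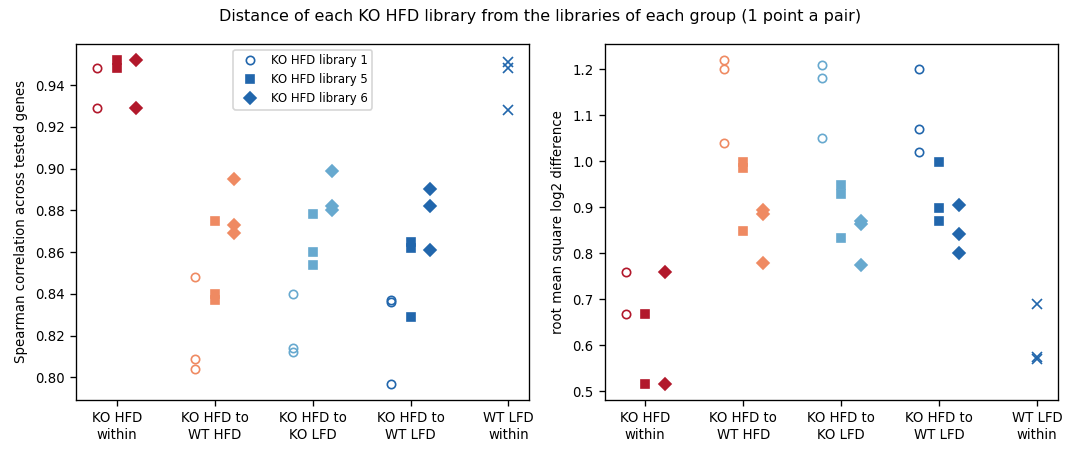
Spearman correlation (left) and root mean square log2 difference (right) across the tested genes, 1 point a pair of libraries, for each KO HFD library with the other KO HFD libraries and with WT HFD, KO LFD and WT LFD libraries. Crosses are pairs of WT LFD libraries. The pairs of KO HFD with any other group reach at most 0.899, below every pair within KO HFD or WT LFD.

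In all, 3261 genes were called, 1186 higher and 2075 lower, and 4729 had an unadjusted p below 0.05. Of the calls, 1455 were past 1 on the log2 scale in size and 223 past 2, of which 121 were higher and 102 lower. The values of the groups did not overlap for 5060 genes, 45.7% of those tested. The median change over all tested genes was -0.17, and it became 0.02 with median-ratio scaling. Of the calls, 63.6% were lower, against 48.8% with median-ratio scaling, 51.9% with each library corrected for GC content and length and 49.7% with library weights. Without KO HFD library 1 there were 1187 lower calls and 52.1% of calls were lower. Without KO HFD library 5 there were 542 higher calls and 2098 in all, of which 74.2% were lower, and without library 6 73.9% were lower. Without WT LFD library 4 there were 1592 calls, 695 higher and 897 lower.

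The same fit gave each of the other groups its own distance from KO HFD. Against WT HFD, 4340 genes (39.2%) were called, with 2430 without WT HFD library 1 and 2697 without WT HFD library 6. Against KO LFD, 2872 genes (25.9%) were called, with 1650 without KO LFD library 5, 1652 without KO HFD library 1 and 1850 without KO LFD library 2. In WT HFD against WT LFD 27 genes (0.244%) were called, 21 higher and 6 lower, and 2719 with library weights. On leaving out 1 library that count ran from 1, without WT HFD library 1, to 107, without KO LFD library 4. These comparisons share libraries with the main one.

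For many genes the departure from the lean wild-type liver was bounded in size. For 5385 genes, 48.6% of those tested, the 95% interval of the log2 change lay within -1 to 1, and for 1302, 11.8%, within a 1.5-fold change either way. With a pseudocount of 0.1, which shrinks low genes less, these counts were 3668 and 544. Receptors that sense lipids and foreign compounds had 13 of 19 members in the wider band, genes of the cytosolic ribosome 53 of 76, of the mitochondrial ribosome 49 of 75 and nuclear subunits of the respiratory chain 48 of 77. A gene in a band can still be called, and of the cytosolic ribosome genes 11 were called lower and 4 higher. Periportal genes had 1 of 13, peroxisomal genes 3 of 24 and acute phase genes 1 of 24. Pparg, a nuclear receptor that drives fat storage, was at 4.72, 5.5 and 6.03 TPM in KO HFD livers and 5.5, 6.54 and 4.85 TPM in WT LFD livers, and the groups overlapped. In WT HFD livers it was at 11.6, 11.5 and 9.27 TPM.

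**Figure D3:**
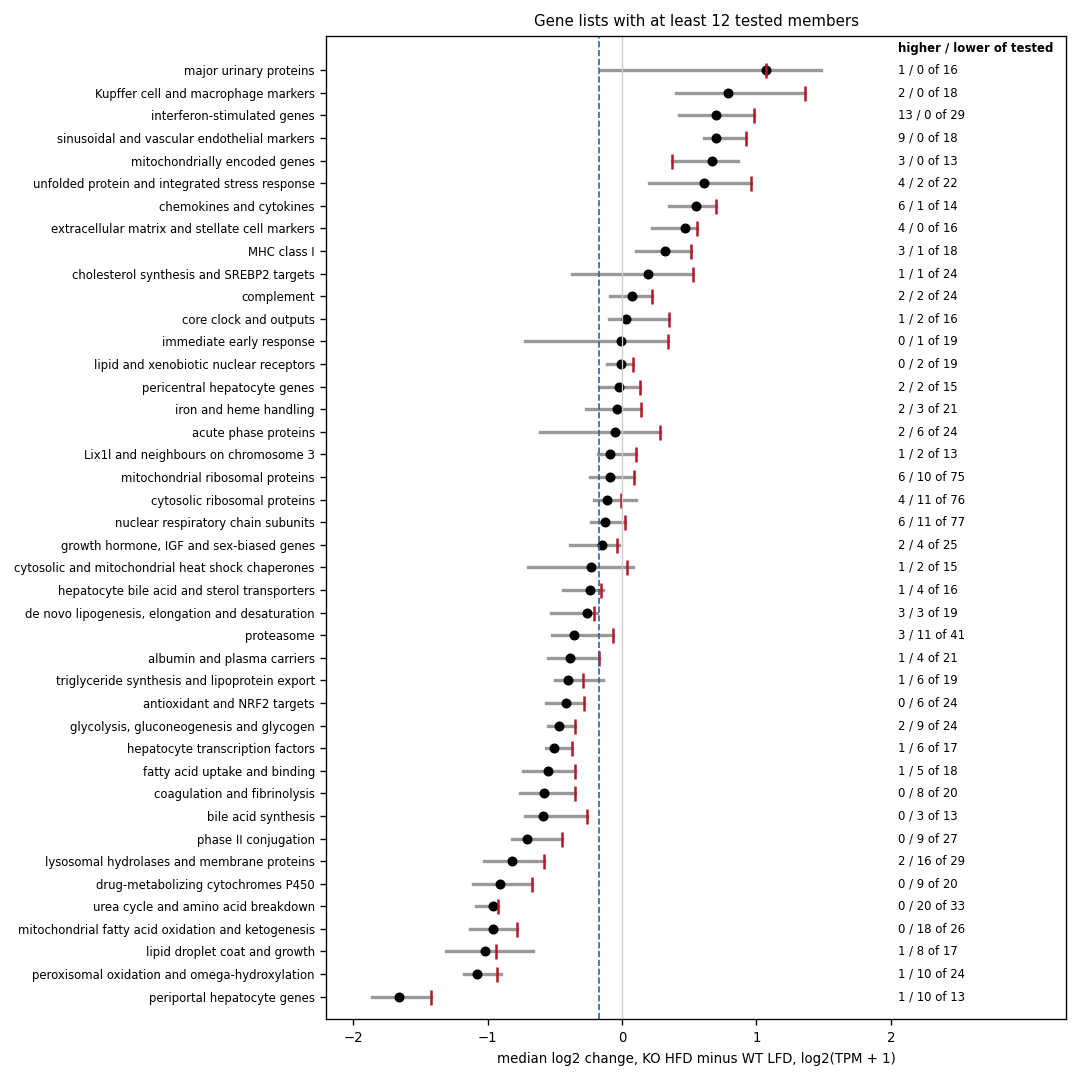
Median log2 change, KO HFD minus WT LFD, of the tested members of each gene list with at least 12 of them (black points), the range on leaving out 1 library (grey lines) and the value without KO HFD library 1 (red ticks), with the median of all tested genes at -0.17 (dashed line) and the members called higher and lower at the right. Periportal genes lie lowest and interferon-stimulated genes, Kupffer cell and endothelial markers near the top. The medians of acute phase, pericentral, immediate early, iron and heme, nuclear receptor, growth hormone, ribosomal, respiratory chain and Lix1l neighbour genes lie near 0 and turn positive with some scalings.

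Genes that take up and bind fatty acids were lower in part. Cd36 was at 6.59, 12.0 and 6.69 TPM in KO HFD livers, against 16.1, 14.4 and 10.7 TPM in WT LFD livers. KO HFD libraries 1 and 6 lay below all WT LFD libraries and library 5 within their range. The change of -0.67 ± 0.36 did not pass the test (95% interval -1.46 to 0.11, adjusted p = 0.171, exact permutation p = 0.2). In WT HFD livers Cd36 was at 52.8, 58.0 and 39.7 TPM, above every KO HFD library (log2 change of KO HFD against WT HFD -2.47, adjusted p = 0.0011). Of 18 uptake genes, 5 fell and 1 rose (median -0.55), and 2 fell without KO HFD library 1 or without WT LFD library 4. Without KO HFD library 1, 2 rose. Slc27a2, an acyl-CoA synthetase that activates very long chain fatty acids, was at 376, 421 and 532 TPM, against 1292, 1027 and 1040 TPM. All KO HFD values were below all WT LFD values (-1.34 ± 0.24, adjusted p = 0.00313). Slc27a5, which couples bile acids to coenzyme A, fell as well (171 ± 45.6 against 350 ± 53.8 TPM, adjusted p = 0.00824). Fabp4, a fatty acid carrier of fat cells, macrophages and endothelium, rose to 9.84 ± 1.77 TPM, against 2.21 ± 1.24 TPM (1.83 ± 0.34, adjusted p = 0.00386).

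Of 17 lipid droplet genes 8 fell and 1 rose (median -1.02, and -0.94 without KO HFD library 1). Hsd17b13, a droplet enzyme of hepatocytes, was at 65.2, 111 and 138 TPM in KO HFD livers, against 503, 479 and 483 TPM in WT LFD livers. The groups were far apart and did not overlap (-2.28 ± 0.24, adjusted p = 2.73e-04). KO LFD livers, at 210 ± 22.8 TPM, and WT HFD livers, at 395 ± 28.9 TPM, lay between them. The droplet coat gene Plin2 (130 ± 51.8 against 440 ± 148 TPM, adjusted p = 0.00619) and the triglyceride lipase Pnpla2 (15.2 ± 3.08 against 60.5 ± 10.5 TPM, adjusted p = 0.00272) fell too, and both were picked after their values were seen. Hsd17b11, another dehydrogenase found on droplets, fell to 90.5 ± 8.95 TPM, against 239 ± 65.7 TPM (adjusted p = 0.00238). Fitm1, which helps droplets bud from the endoplasmic reticulum, was the member that rose. It was at 92.6, 85.1 and 58.0 TPM, against 22.7, 12.1 and 18.0 TPM (2.11 ± 0.34, adjusted p = 0.00201), and WT HFD livers held a like level of 73.4 ± 21.5 TPM.

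Genes of triglyceride and lipoprotein handling had more falls than rises, and lipogenic genes were called at shares near those of all tested genes. Of 19 genes of triglyceride synthesis and lipoprotein export, 6 fell (31.6%) and 1 rose (5.26%), with a median of -0.40. Over all tested genes 18.7% fell and 10.7% rose. The count of lower genes dropped to 1 without WT LFD library 4, 2 without KO HFD library 1 and 3 without WT LFD library 7 or KO HFD library 5. Apob, around whose protein the liver builds its triglyceride-rich lipoproteins, was at 558, 708 and 717 TPM in KO HFD livers, against 1271, 1149 and 1255 TPM in WT LFD livers (-0.90 ± 0.18, adjusted p = 0.00464). Apoc3, an apolipoprotein that slows the clearance of triglyceride, rose by 1.06 ± 0.24 (adjusted p = 0.00905). Of 19 lipogenic genes 3 rose and 3 fell (15.8% each, median -0.26), and 5 fell without KO HFD library 6. The elongases Elovl2 (56.4 ± 10.1 against 191 ± 27.0 TPM, adjusted p = 7.54e-04) and Elovl5 (66.2 ± 17.3 against 273 ± 49.6 TPM, adjusted p = 0.00164) fell. Mlxipl, which encodes the glucose-sensing factor ChREBP, rose to 36.3, 52.7 and 76.4 TPM, against 15.9, 18.0 and 15.4 TPM (1.62 ± 0.31, adjusted p = 0.00449). Thrsp, a lipogenic protein induced by thyroid hormone and carbohydrate, was at 147, 79.96 and 358 TPM, against 12.3, 14.7 and 9.65 TPM (adjusted p = 0.0163). The call on Thrsp was lost with no filter on low values. The fatty acid synthase gene Fasn, picked after its values were seen, was at 26.2, 28.2 and 163 TPM, against 21.3, 18.9 and 18.3 TPM, and did not pass the test (adjusted p = 0.269).

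Mitochondrial fatty acid oxidation had no member called higher. Of its 26 genes 18 fell, and the values of the groups did not overlap for 20, all lower in KO HFD. Over all tested genes 18.7% fell, and the groups did not overlap for 45.7%, counting either direction. The median change was -0.96, and -0.78 without KO HFD library 1, when 12 members fell, and 10 fell without WT LFD library 4. Etfdh, which passes electrons from fatty acid oxidation to the respiratory chain, was at 13.7, 31.8 and 49.7 TPM in KO HFD livers, against 195, 124 and 137 TPM in WT LFD livers. Library 1 was the lowest of the KO HFD libraries, and all of them lay below WT LFD (-2.37 ± 0.37, adjusted p = 0.00189). Hadha and Hadhb encode the chains of the trifunctional protein, the enzyme complex of long-chain oxidation. Hadha was at 26.2, 36.1 and 49.1 TPM, against 183, 88.2 and 109 TPM (-1.72 ± 0.32, adjusted p = 0.00366). Hadhb, picked after its values were seen, was at 57.1 ± 36.7 against 225 ± 26.7 TPM (adjusted p = 0.00436).

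Cpt1a, Ppargc1a and Pdk4 of the same list fell, and Ppara did not pass the test. Cpt1a, which forms the acylcarnitine that enters mitochondria and was picked after its values were seen, was at 27.5, 37.7 and 44.6 TPM, against 194, 92.3 and 140 TPM (-1.89 ± 0.38, adjusted p = 0.00502). Ppargc1a, a coactivator of oxidative genes, was at 0.277 ± 0.0833 TPM, against 1.86 ± 0.282 TPM (-1.16 ± 0.16, adjusted p = 0.00116). Pdk4, a kinase that spares glucose when fat is burned, was at 0.260, 0.610 and 1.24 TPM in KO HFD livers and 1.11, 0.850 and 1.29 TPM in WT HFD livers, against 5.84, 9.30 and 3.61 TPM in WT LFD livers. Pdk4 was thus low in both groups on HFD (KO HFD minus WT LFD -2.05 ± 0.30, adjusted p = 0.00152, and WT HFD minus WT LFD -1.73, adjusted p = 0.046). The receptor gene Ppara, picked after its values were seen, was at 32.5 ± 5.15 against 47.5 ± 11.7 TPM and did not pass (-0.51, adjusted p = 0.182). Of the oxidation list, 19 of 26 were called lower in KO HFD against WT HFD, which shares the KO HFD libraries, and 1, Pdk4, in WT HFD against WT LFD.

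Peroxisomal genes had a median of -1.08, with 10 of 24 called lower and 1 higher, and 6 lower without KO HFD library 1 or without WT LFD library 4. The higher call was lost without either of these libraries, and in other omissions. Ehhadh, the bifunctional enzyme of peroxisomal oxidation, was at 31.4, 60.4 and 84.9 TPM in KO HFD livers, against 921, 383 and 495 TPM in WT LFD livers. The lowest WT LFD library held several times the level of the highest KO HFD library (-3.34 ± 0.59, adjusted p = 0.00326). WT HFD livers were also low, at 123 ± 25.8 TPM. Crot, which hands peroxisomal products on as carnitine esters, was at 95.2 ± 28.2 against 437 ± 108 TPM (adjusted p = 9.43e-04). The peroxisomal fatty acid transporter Abcd3 was at 57 ± 20.5 against 182 ± 70.3 TPM (adjusted p = 0.0046). Of 13 tested genes near Lix1l, 2 fell (15.4%) and 1 rose (7.69%), both below the shares over all tested genes. Without KO HFD library 1, 1 fell.

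Periportal genes made the largest downward shift of the lists with at least 12 tested members, with a median of -1.66. Of 13, 10 fell and 1, Igf1, rose, and without KO HFD library 1 8 fell and the median was -1.42. Cps1, the first enzyme of the urea cycle, was at 57.7, 84.2 and 124 TPM in KO HFD livers, against 546, 371 and 516 TPM in WT LFD livers. All KO HFD values lay below all WT LFD values (-2.47 ± 0.39, adjusted p = 0.00191). Etnppl, a phospholyase of ethanolamine phosphate, was at 6.58, 8.51 and 17.1 TPM, against 50.1, 99.4 and 85.2 TPM (adjusted p = 0.00175). Sds, which breaks down serine, was at 52.3 ± 15.4 TPM in KO HFD livers and 60.7 ± 6.22 TPM in WT HFD livers, against 227 ± 51.5 TPM in WT LFD livers (adjusted p = 0.0033). Igf1, a hormone that liver secretes under growth hormone, was at 858 ± 152 against 531 ± 79.4 TPM (0.69 ± 0.20, adjusted p = 0.0238), and its call was lost without KO HFD library 1, without WT LFD library 4 or 8 and in the fit of the 6 libraries.

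The urea cycle and amino acid genes had a median of -0.96, and -0.92 without KO HFD library 1, with 17 to 21 of 33 called lower on leaving out any 1 library. Got1, the cytosolic aspartate aminotransferase, was at 11.3, 25.1 and 30.2 TPM in KO HFD livers, against 172, 203 and 285 TPM in WT LFD livers (-3.33 ± 0.42, adjusted p = 7.39e-04). It was at 48.6, 39.2 and 47.6 TPM in WT HFD livers, between the other groups. Tdo2, which opens the ring of tryptophan, was at 71.2, 164 and 272 TPM, against 948, 629 and 849 TPM (-2.43 ± 0.40, adjusted p = 0.00234). Cth, which makes cysteine, was at 94.0 ± 31.9 against 431 ± 167 TPM (adjusted p = 0.00154). Gnmt, a methyltransferase that disposes of surplus methionine and was picked after its values were seen, was at 87.0, 283 and 549 TPM, against 1853, 1446 and 1790 TPM (-2.82 ± 0.55, adjusted p = 0.0045).

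Pericentral genes gave few calls, with 2 of 15 higher and 2 lower and a median of -0.02, which was 0.05 to 0.20 with other scalings and 0.13 without KO HFD library 1. The share was 13.3% each way, against 10.7% higher and 18.7% lower over all tested genes. On leaving out 1 library 1 or 2 were higher and 0 to 3 lower, with 1 higher and 0 lower without WT LFD library 4 or 8. The 95% interval lay within -1 to 1 for 7 of the 15. Glul, the glutamine synthetase gene of the cells around the central vein, was at 206, 296 and 365 TPM in KO HFD livers and 347, 307 and 322 TPM in WT LFD livers, and the groups overlapped (-0.21 ± 0.21, adjusted p = 0.477, picked after its values were seen). Its sign turned with median-ratio scaling, with the GC and length correction and without KO HFD library 1. Nkd1, a target and brake of Wnt signalling, rose to 5.20, 6.11 and 3.70 TPM, against 1.18, 1.25 and 1.34 TPM (1.39 ± 0.27, adjusted p = 0.0046). The difference between periportal and pericentral genes was not tested.

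**Figure D4:**
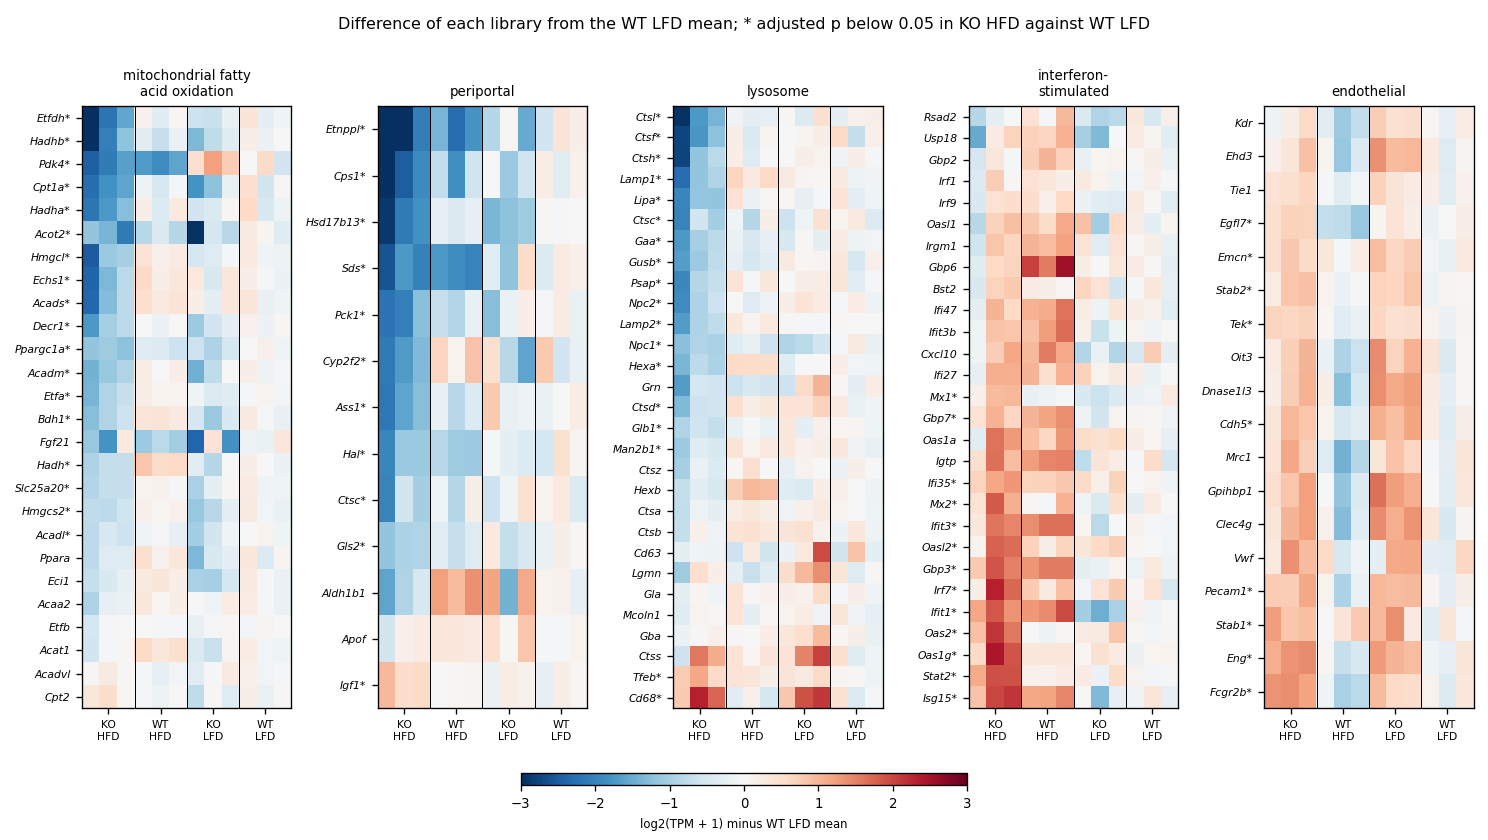
Difference of log2(TPM + 1) from the WT LFD mean (colour, blue lower and red higher, clipped at 3 either way) for tested members of 5 lists (rows; 1 interferon-stimulated gene is not shown) in each library (columns: 3 each of KO HFD, WT HFD, KO LFD and WT LFD). Genes of fatty acid oxidation, periportal cells and lysosomes are mostly blue in all 3 KO HFD libraries, deepest in the first column, library 1. Interferon-stimulated genes are mostly red in libraries 5 and 6 and mixed in library 1, and endothelial genes are mostly red in all 3.

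Of 24 genes of glycolysis, gluconeogenesis and glycogen, 9 fell and 2 rose, with a median of -0.47. Without 1 library the count of lower genes was 3 (WT LFD 4), 4 (WT LFD 8 or KO HFD 5) or 5 (KO HFD 1). Gckr, a regulatory protein of hepatocyte glucose use, rose to 92.6 ± 18.1 TPM in KO HFD livers, against 37.5 ± 6.06 TPM in WT LFD livers (adjusted p = 0.00725). Fbp1, which releases fructose 6-phosphate on the way to glucose, was at 69.0, 210 and 275 TPM, against 1200, 728 and 984 TPM (-2.58 ± 0.43, adjusted p = 0.00246). Pck1, the first committed step of gluconeogenesis, was at 347 ± 130 against 1201 ± 187 TPM (-1.84 ± 0.37, adjusted p = 0.00502).

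Bile acid and cholesterol genes were less uniform. Of 13 genes of bile acid synthesis 3 fell and 0 rose, with a median of -0.59, and -0.26 without KO HFD library 1. Cyp8b1, the hydroxylase that makes cholic acid, was at 54.0, 63.7 and 99.3 TPM in KO HFD livers, against 474, 210 and 446 TPM in WT LFD livers (-2.32 ± 0.32, adjusted p = 0.00106). Cyp39a1, an oxysterol hydroxylase, was at 0.827 ± 0.129 against 5.22 ± 2.23 TPM (adjusted p = 0.00152), and Amacr, a racemase of bile acid side chains, at 30.3 ± 8.33 against 70.3 ± 15.3 TPM (adjusted p = 0.00479). Among 16 transporters 4 fell and 1 rose. Scarb1, the receptor for high-density lipoprotein, was at 14.98, 21.4 and 20.02 TPM, against 56.6, 56.2 and 43.6 TPM (-1.43 ± 0.21, adjusted p = 0.00131). Slc51a, a subunit of a basolateral bile acid exporter, rose to 4.61, 6.73 and 3.91 TPM, against 0.1, 1.22 and 0.750 TPM (1.88 ± 0.37, adjusted p = 0.00452). Of 24 genes of cholesterol synthesis 1 rose and 1 fell, and on leaving out 1 library both counts ran from 0 to 3, with 0 and 0 without WT LFD library 4 or 8 or KO HFD library 5. Their median of 0.19 ran from -0.37 to 0.53 in the same way.

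Enzymes of drug metabolism included some of the largest falls. Cyp3a11, the main steroid and drug oxidase of mouse liver, was at 74.6, 179 and 143 TPM in KO HFD livers and 341, 498 and 304 TPM in WT HFD livers, against 2089.9, 4193 and 1724 TPM in WT LFD livers. KO HFD lay below WT LFD in every library (-4.30 ± 0.78, adjusted p = 0.00343), and KO LFD livers ranged from 238 to 4127 TPM. Of 20 cytochromes P450 of this kind, 9 fell and 0 rose (median -0.91), but 2 fell without KO HFD library 1 or WT LFD library 4, 4 without WT LFD library 7 and 5 without KO HFD library 5. Of 27 genes of phase II conjugation 9 fell and 0 rose (median -0.71). Ugt3a2, a glycosyltransferase, was at 44.6 ± 11.2 against 125 ± 29.6 TPM (-1.46 ± 0.24, adjusted p = 0.0023). Ugt1a1, Ugt1a6a and Ugt1a9 were called lower as well, by 3.32, 2.70 and 3.90 on the log2 scale, but share most of their 31-base words with other genes, so that their separate levels are uncertain. Of 24 antioxidant genes 6 fell (25%, against 18.7% of all tested genes) and 0 rose (median -0.42), and 1 fell without WT LFD library 4 and 2 without KO HFD library 1.

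Plasma proteins of hepatocytes changed in part. Of 20 coagulation genes 8 fell and 0 rose (median -0.58), and without 1 library 2 fell (WT LFD 4), 3 (WT LFD 7 or KO HFD 1), 4 (WT LFD 8) or 5 (KO HFD 5). F13b, a subunit of the factor that crosslinks fibrin, was at 4.87, 13.5 and 20.0 TPM in KO HFD livers, against 87.8, 56.4 and 59.5 TPM in WT LFD livers (-2.48 ± 0.41, adjusted p = 0.00234). The fibrinogen chain Fga was at 126, 447 and 433 TPM, against 1354, 1477 and 815 TPM (-2.02 ± 0.45, adjusted p = 0.00886). Of 24 acute phase genes 6 fell (25%) and 2 rose (8.33%), against 18.7% and 10.7% of all tested genes. Among these acute phase genes 0 rose without KO HFD library 1 or 5 or WT LFD library 4. Their median of -0.05 was 0.03 to 0.18 with other scalings and 0.28 without KO HFD library 1. C3, the central complement protein, was at 404, 741 and 686 TPM, against 1812, 1738 and 1589.6 TPM (-1.53 ± 0.33, adjusted p = 0.00764). Of 24 complement genes 2 rose and 2 fell, with 6 higher without KO HFD library 1, 1 without WT LFD library 7 and 0 without WT LFD library 4 or 8 or KO HFD library 5. The complement share of 8.33% each way was below the 10.7% higher and 18.7% lower of all tested genes. The summed level of 21 albumin and carrier genes did not separate the groups (ratio of means 0.888, exact permutation p = 0.4).

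Lysosomal genes had 20 of 29 members whose values lay lower in KO HFD than in WT LFD livers without overlap and 2 higher. The groups did not overlap for 45.7% of all tested genes, counting either direction. The median was -0.82, and -0.58 without KO HFD library 1, when 14 fell and 3 rose. Ctsl, the protease cathepsin L, was at 49.3, 117 and 149 TPM in KO HFD livers, against 319, 427 and 444 TPM in WT LFD livers (-2.03 ± 0.36, adjusted p = 0.00307). Lipa, the acid lipase that frees cholesterol and fatty acids, was at 12.6, 22.7 and 22.4 TPM, against 69.6, 42.0 and 47.4 TPM (-1.43 ± 0.27, adjusted p = 0.00376). Hexa, a hexosaminidase chain, was at 9.54 ± 2.14 TPM in KO HFD livers and 30.5 ± 0.707 TPM in WT HFD livers, against 20.4 ± 2.78 TPM in WT LFD livers (KO HFD minus WT LFD, adjusted p = 0.00398). The membrane protein Lamp1, picked after its values were seen, was at 41.5, 90.4 and 110 TPM, against 246, 185 and 190 TPM (-1.45 ± 0.30, adjusted p = 0.0064).

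The members that rose were the macrophage protein Cd68 and the transcription factor Tfeb. Cd68 was at 3.66, 12.5 and 8.07 TPM, against 2.74, 1.05 and 1.58 TPM (adjusted p = 0.0158), and its call was lost without KO HFD library 5 or WT LFD library 7. Tfeb, a regulator of lysosomal genes that was picked after its values were seen, was at 5.48, 7.56 and 4.72 TPM, against 3.10, 2.93 and 2.52 TPM (0.83 ± 0.18, adjusted p = 0.00853). Of the tested lysosomal genes with CACGTG in the promoter window 6 of 10 fell, and of those without it 8 of 14.

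Interferon-stimulated genes shifted upward, with a median of 0.70, and 0.98 without KO HFD library 1, when 18 of 29 rose. Without 1 other library the count was 5 (KO HFD 5), 6 (KO HFD 6), 7 (WT LFD 4) or 8 (WT LFD 8). Stat2, a subunit of the interferon-activated complex, was at 16.9, 30.7 and 30.1 TPM in KO HFD livers, against 7.94, 6.93 and 7.17 TPM in WT LFD livers. All KO HFD values were above all WT LFD values (1.64 ± 0.24, adjusted p = 0.00149), and WT HFD livers, at 8.42 ± 0.433 TPM, were near WT LFD. Oas2, an oligoadenylate synthetase that senses double-stranded RNA, was at 1.72, 5.58 and 3.45 TPM, against 0.510, 0.410 and 0.530 TPM (1.54 ± 0.28, adjusted p = 0.00334), and WT HFD livers held 0.450 ± 0.111 TPM.

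Other members were as high in WT HFD as in KO HFD livers. Ifit1, which binds viral RNA, was at 9.63, 16.4 and 11.2 TPM in KO HFD livers and 10.8, 11.8 and 17.8 TPM in WT HFD livers, against 4.18, 3.43 and 3.73 TPM in WT LFD livers. Both groups on HFD lay above WT LFD without overlap (KO HFD 1.46 ± 0.24, adjusted p = 0.00234, and WT HFD 1.57, adjusted p = 0.0288). KO LFD livers held 1.34, 0.720 and 1.43 TPM, below all other libraries. The guanylate-binding protein gene Gbp3 was also high in both, at 5.41 ± 2.28 TPM in KO HFD livers and 5.48 ± 0.607 TPM in WT HFD livers, against 1.35 ± 0.448 TPM in WT LFD livers (KO HFD adjusted p = 0.00364). Isg15, a ubiquitin-like modifier picked after its values were seen, was at 39.6, 88.1 and 97.2 TPM in KO HFD livers and 48.5, 49.8 and 60.2 TPM in WT HFD livers, against 19.7, 27.4 and 17.8 TPM in WT LFD livers (adjusted p = 0.00886). Over the list, 3 genes were called higher in WT HFD against WT LFD (median 0.84), and 4 higher and 3 lower in KO HFD against WT HFD (median -0.20), 2 comparisons that share libraries with the main one. Of tested interferon genes with GAAANNGAAA in the window 7 of 15 rose, and of those without it 3 of 7.

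Among called genes without overlap, with predicted and clone-based symbols left out, the largest rise belonged to a class I histocompatibility gene. H2-Q1 (ENSMUSG00000079507, chromosome 17, 35320405 to 35325099, + strand) was at 1000.1, 969 and 586 TPM in KO HFD livers, against 1.86, 1.60 and 2.87 TPM in WT LFD livers. Every one of the 9 other libraries held at most 17.1 TPM (KO HFD minus WT LFD 8.08 ± 0.56, adjusted p = 1.14e-05). H2-Q1 shares a part of its 31-base words with other genes (0.237), so its separate level is less certain. The list of class I genes as a whole was not raised in the same way, with 3 of 18 higher, 1 lower and a median of 0.32, and with 1 higher without WT LFD library 8 or KO HFD library 5. The lower call was lost without KO HFD library 1, among other omissions. Psmb10, a subunit of the immunoproteasome, was at 45.2, 87.9 and 47.9 TPM, against 19.3, 25.7 and 13.5 TPM (1.56 ± 0.28, adjusted p = 0.00319). Of 41 proteasome genes 11 fell (26.8%) and 3 rose (7.32%), against 18.7% and 10.7% of all tested genes. The 3 that rose, Psmb10, Psmb8 and Psmb9, are the catalytic subunits of the immunoproteasome. The call on Psmb9 was lost with no filter and without WT LFD library 7 or 8 or KO HFD library 5, and that on Psmb8 with no filter, in the fit of the 6 libraries and without any 1 library other than KO HFD library 1. The fallen proteasome genes numbered 1 without WT LFD library 4, 4 without WT LFD library 8 and 5 without KO HFD library 1.

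Markers of macrophages were high in 2 of the 3 KO HFD libraries. The summed level of 18 Kupffer cell and macrophage markers was 107, 563 and 334 TPM in KO HFD livers, against 191, 109 and 164 TPM in WT LFD livers (exact permutation p = 0.4). Libraries 5 and 6 were above all WT LFD libraries, and library 1 was below them all. In KO LFD livers the sum was high as well, at 244, 517 and 649 TPM, and in WT HFD livers it was 160, 80.1 and 117 TPM. Of these markers 2 rose, Cd68 and Timd4, and 0 fell, and 8 rose without library 1. The Kupffer cell lectin Clec4f, picked after its values were seen, was at 20.6, 132 and 77.1 TPM, against 28.7, 20.0 and 25.5 TPM (adjusted p = 0.128), and it passed without library 1. The call on Timd4 was lost with no filter and without KO HFD library 5 or WT LFD library 7 or 8. The sum of 12 markers of recruited and lipid-associated macrophages was lower, at 87.1, 141 and 137 TPM, against 227, 186 and 179 TPM (exact permutation p = 0.1, the smallest that 3 against 3 can give). Ctsd, which is also in the lysosomal list, added most to that difference. Without Ctsd the sum was 45.4, 72 and 65.5 TPM, against 98.6, 93.5 and 80.7 TPM (exact permutation p = 0.1). Of the 12 markers 6 were tested, and 2 fell and 1 rose. The higher call was lost without KO HFD library 5 or 6 or WT LFD library 4, 7 or 8. Without KO HFD library 1 or WT LFD library 7, 1 fell. Of 14 chemokine and cytokine genes 6 rose and 1 fell (median 0.55), and 0 fell without KO HFD library 1 or WT LFD library 7. Csf1, the growth factor of macrophages, was at 3.46, 4.25 and 3.91 TPM, against 1.62, 1.38 and 1.49 TPM (0.96 ± 0.15, adjusted p = 0.00182). The count of higher chemokine genes was 1 without WT LFD library 4 or KO HFD library 5, 2 without WT LFD library 8 and 3 without KO HFD library 6.

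Endothelial markers were higher in every KO HFD library, and matrix markers were so only with Ecm1 counted. The sum of 20 endothelial markers was 144, 173 and 184 TPM in KO HFD livers, against 83.8, 72.9 and 97.2 TPM in WT LFD livers (exact permutation p = 0.1). In KO LFD livers it was 184, 173 and 159 TPM, as high as in KO HFD, and in WT HFD livers 78.0, 47.2 and 64.3 TPM. The sum of 29 matrix and stellate cell markers was 238, 284 and 265 TPM in KO HFD livers, against 114, 124 and 163 TPM in WT LFD livers (exact permutation p = 0.1). Most of that difference was Ecm1, which hepatocytes make too. Without Ecm1 the matrix sum was 73.1, 105.1 and 134.3 TPM, against 70.2, 63.8 and 100.3 TPM, and the groups overlapped (exact permutation p = 0.2). With Ecm1 counted, the matrix sum was 283, 264 and 178 TPM in KO LFD livers and 110.3, 86.7 and 91.3 TPM in WT HFD livers. The endothelial list had a median of 0.70, and 6 members rose without KO HFD library 1, 4 without WT LFD library 7 or KO HFD library 5, and 3 without WT LFD library 4 or KO HFD library 6. Of 16 tested matrix genes 4 rose and 0 fell, and 2 rose without WT LFD library 4 or KO HFD library 5 or 6.

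Eng, a coreceptor for transforming growth factor beta, was at 13.2, 16.03 and 16.8 TPM in KO HFD livers, against 5.13, 4.69 and 7.71 TPM in WT LFD livers (1.28 ± 0.23, adjusted p = 0.00329). Fcgr2b, an inhibitory Fc receptor of liver sinusoids, was at 20.3, 20.9 and 18.1 TPM, against 7.98, 5.33 and 9.37 TPM (adjusted p = 0.00421). Neither gene overlapped between the groups. Tek, the angiopoietin receptor, was at 1.31 ± 0.0643 against 0.467 ± 0.145 TPM (adjusted p = 0.00977). Among matrix genes, Ecm1, a secreted glycoprotein, was at 158 ± 24.5 against 55.3 ± 10.2 TPM (1.5 ± 0.24, adjusted p = 0.00208) and Des, the intermediate filament of stellate cells, at 1.45 ± 0.264 against 0.480 ± 0.118 TPM (adjusted p = 0.014).

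**Figure D5:**
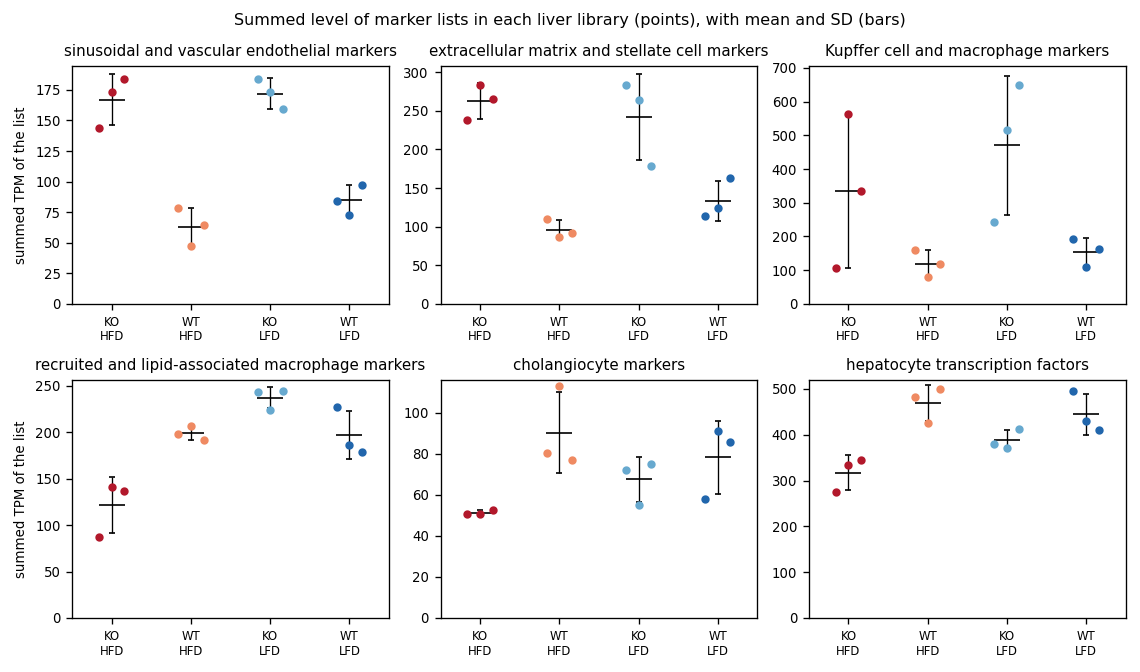
Summed TPM of 6 marker lists in each library (points), with mean (line) and SD (bar), for KO HFD, WT HFD, KO LFD and WT LFD livers, axes from 0. Endothelial and matrix sums in all KO HFD libraries lie above all WT LFD libraries, with most of the matrix difference from Ecm1. Recruited macrophage, cholangiocyte and hepatocyte transcription factor sums lie below, and Kupffer cell sums overlap.

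Markers of other cell types were of low level or separated the groups in part. Cholangiocyte markers summed to 50.8, 50.6 and 52.6 TPM in KO HFD livers, against 58.1, 91.4 and 85.7 TPM in WT LFD livers (exact permutation p = 0.1), and Epcam, their adhesion molecule, fell to 0.523 ± 0.146 TPM, against 1.94 ± 0.514 TPM (adjusted p = 0.00871). Cftr of that list was below 0.1 TPM in every library. Neutrophil markers summed to 9.71, 11.5 and 9.70 TPM, against 3.95, 5.91 and 1.95 TPM (exact permutation p = 0.1). They summed to 5.44, 77.6 and 31.7 TPM in KO LFD livers and 5.15, 5.46 and 3.73 TPM in WT HFD livers. The sums of T and NK cell (p = 0.2), B and plasma cell (p = 1), erythroid (p = 0.9) and adipose markers (p = 0.6) did not separate the groups by the same exact test. Of 14 markers of muscle, pancreas and kidney 11 were below 0.1 TPM in every library. Their sum, nearly all of it Cela1, was 26.5, 37.6 and 32 TPM in KO HFD livers. In WT LFD livers it was 15.9, 16.9 and 23.5 TPM (exact permutation p = 0.1). The part that changes in the mix of cells had in the gene levels above was not tested.

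Transcription factors of hepatocytes were lower on the whole, and one was higher. Their summed level over 19 genes was 274, 333 and 345 TPM in KO HFD livers, against 495, 429.7 and 409.8 TPM in WT LFD livers (exact permutation p = 0.1). Of 17 tested 6 fell and 1 rose (median -0.51), with 1 fallen without WT LFD library 4 or 7 and 2 without WT LFD library 8 or KO HFD library 1. Nr5a2, which drives bile acid and cholesterol genes, was at 2.29, 5.39 and 3.54 TPM, against 9.88, 10.2 and 9.18 TPM (-1.23 ± 0.26, adjusted p = 0.00653). Zbtb20, a repressor of fetal liver genes, was at 14.0, 7.26 and 7.25 TPM in KO HFD livers, against 1.74, 1.92 and 2.03 TPM in WT LFD livers (1.80 ± 0.24, adjusted p = 8.63e-04). Of 16 clock genes 1 rose (6.25%) and 2 fell (12.5%), below the shares of all tested genes, with a median of 0.03. Among them Per2 rose to 13.2 ± 2.61 TPM, against 1.72 ± 0.730 TPM (2.40 ± 0.40, adjusted p = 0.00251), and the repressor Nr1d1 fell to 12.1 ± 7.28 TPM, against 34.3 ± 3.51 TPM (adjusted p = 0.00544). The sources used here do not give the time of day at which livers were taken.

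Of 77 nuclear subunits of the respiratory chain 11 fell (14.3%) and 6 rose (7.79%), with a median of -0.13 that ran from -0.05 to 0.12 with other scalings, and with 3 to 16 lower and 0 to 10 higher on leaving out 1 library. The lowest counts were without WT LFD library 4, and the highest count of rises was without WT LFD library 7. Of 75 genes of the mitochondrial ribosome 10 fell (13.3%) and 6 rose (8%), with a median of -0.09 (-0.02 to 0.12 with other scalings), and with 5 to 15 lower and 3 to 7 higher on leaving out 1 library. Both lists were called at shares below those of all tested genes, 18.7% lower and 10.7% higher. Tfam, which packs and transcribes mitochondrial DNA, was at 4.47, 4.94 and 6.05 TPM in KO HFD livers, against 21.7, 21.9 and 22.3 TPM in WT LFD livers, with little spread in either group (-1.91 ± 0.16, adjusted p = 5.39e-05). It was at 20.7 ± 2.33 TPM in WT HFD livers and 17.0 ± 0.839 TPM in KO LFD livers. Of 13 mitochondrially encoded genes 3 rose and 0 fell (median 0.67), but 0 rose without KO HFD library 1 or WT LFD library 4, 1 without KO HFD library 5 and 5 without KO HFD library 6, and their nuclear copies make the separate levels of some uncertain. Hspa9, a chaperone of the mitochondrial matrix, fell to 53.0 ± 23.5 TPM, against 153 ± 24.8 TPM (adjusted p = 0.00409).

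Some of the genes with the largest or most clearly separated changes were near 0 TPM in one group. Rny3 was at 67.4, 48.1 and 31.8 TPM in KO HFD libraries and listed at 0 in all others (adjusted p = 1.12e-07). The other groups thus had an SD of 0, and with depth unknown the number of reads behind these values is unknown. Snord13, another short RNA, was at 82.8, 200 and 117 TPM in KO HFD livers and 0 in WT LFD livers. It varied between libraries elsewhere, at 97.3, 0 and 0 TPM in WT HFD livers and 0, 283 and 0 TPM in KO LFD livers. Bicd1, an adaptor of the dynein motor, was at 8.24, 9.21 and 10.03 TPM, against 0.0100, 0.290 and 0.0300 TPM (3.20 ± 0.20, adjusted p = 4.84e-06). Rny3, Snord13 and Bicd1 were below 1 TPM in every WT LFD library. They passed the filter only because all 3 KO HFD libraries reached 1 TPM. Their lack of overlap was thus fixed by the filter, and their p-values give no separate support for it. Mmd, a membrane protein found in maturing monocytes, was at 0.750, 1.08 and 1.42 TPM in KO HFD livers, against 90.3, 22.2 and 36.6 TPM in WT LFD livers, and was at 31.6 TPM or more in WT HFD libraries (KO HFD minus WT LFD -4.38 ± 0.48, adjusted p = 3.05e-04). Aldh4a1, which acts in proline breakdown, was at 0.380, 0.890 and 2.57 TPM, against 85.0, 22.2 and 31.1 TPM (adjusted p = 0.00164). Mmd and Aldh4a1 share a part of their 31-base words with other genes (0.201 and 0.31), so their separate levels are less certain. The complement gene C4a, which has a near copy that makes its separate level uncertain, was at 84.3 ± 18.3 against 3.33 ± 0.554 TPM (4.28 ± 0.42, adjusted p = 1.52e-04). The splicing factor Rbm25, which is near 0 in neither group, stood apart from both wild-type groups at 29.7, 31.4 and 31.8 TPM, against 8.85, 8.33 and 10.5 TPM (1.65 ± 0.17, adjusted p = 1.96e-04).

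Of 9 tested long noncoding and nuclear-retained RNAs, 2 rose, Neat1 and Malat1, and 1 fell, with a median of -0.05 (0.03 without KO HFD library 1, 0.02 to 0.20 with other scalings). On leaving out 1 library 0 to 2 fell and 2 rose. Neat1, the scaffold of paraspeckles, was at 60.0, 111 and 196 TPM in KO HFD livers, against 16.8, 16.5 and 20.6 TPM in WT LFD livers (2.55 ± 0.48, adjusted p = 0.00414). Malat1, a nuclear speckle RNA, was at 39.5, 71.5 and 126 TPM, against 7.09, 21.3 and 23 TPM (2.14 ± 0.47, adjusted p = 0.00796). Both were above WT LFD in every KO HFD library, and library 6, not library 1, was the highest.

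Some departures from the lean wild-type liver were also present in WT livers on HFD. Of the 10 genes named for the largest change by diet in wild type, Lepr, the leptin receptor, was at 0.670, 0.360 and 0.210 TPM in KO HFD livers and 0.1, 0.48 and 0.15 TPM in WT HFD livers, against 6.51, 11.2 and 5.92 TPM in WT LFD livers. KO HFD and WT HFD overlapped, and both lay below WT LFD (KO HFD minus WT LFD -2.62 ± 0.34, adjusted p = 8.63e-04, and WT HFD minus WT LFD -2.80, adjusted p = 0.00858). Slc10a2, a sodium-driven bile acid transporter, was at 5.07 ± 1.09 TPM in KO HFD livers and 5.54 ± 2.07 TPM in WT HFD livers, against 0.787 ± 0.497 TPM in WT LFD livers (KO HFD adjusted p = 0.00231). Adgrv1, an adhesion receptor, was at 6.29 ± 2.15, 11.4 ± 5.87 and 0.850 ± 0.182 TPM in the same order (KO HFD adjusted p = 0.00207). Apol9a, an apolipoprotein L induced by interferon, was at 97.3 ± 41.9, 115 ± 15.3 and 32.1 ± 4.55 TPM (KO HFD adjusted p = 0.00479). Igfbp2, named from the growth hormone and IGF list and a binding protein of insulin-like growth factors, was at 382, 436 and 360.2 TPM in KO HFD livers and 423, 289 and 480 TPM in WT HFD livers, against 1279, 1714 and 1150 TPM in WT LFD livers (KO HFD -1.80 ± 0.36, adjusted p = 0.00502, and WT HFD -1.81, adjusted p = 0.07).

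For other genes named by that rule KO HFD livers lay between the diets of wild type or near WT LFD. Cfd, the fat-cell protease adipsin, was at 4.18, 19.1 and 2.58 TPM in KO HFD livers and 178, 245 and 50.7 TPM in WT HFD livers, against 0.310, 0 and 0.980 TPM in WT LFD livers. KO HFD was apart from both, above WT LFD (adjusted p = 0.0167, lost without WT LFD library 4 or 7, with a pseudocount of 5 and with no filter) and below WT HFD (-4.19, adjusted p = 0.00128). Gbp6, whose copies make its level uncertain, was at 1.08, 3.04 and 3.21 TPM in KO HFD livers and 9.98, 6.75 and 14.5 TPM in WT HFD livers, against 2.13, 1.72 and 1.20 TPM in WT LFD livers. KO HFD overlapped WT LFD (0.31 ± 0.30, adjusted p = 0.467) and lay below WT HFD (-1.74, adjusted p = 0.00215). Lgals1, a galectin of stromal and immune cells, was at 29.6, 49.2 and 26.4 TPM in KO HFD livers and 82.3, 133 and 50.5 TPM in WT HFD livers, against 6.8, 14.6 and 8 TPM in WT LFD livers (KO HFD minus WT LFD adjusted p = 0.0153, lost without KO HFD library 5 or WT LFD library 4).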

How the data were processed

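The authors deposited 1 table of TPM per gene for 12 liver libraries, with their own group means. Per the labels' protocols, poly(A) RNA from frozen liver was made into libraries with a TruSeq kit, and HISAT2, StringTie and the mm10 build are named in the submitters' processing notes, with no versions. Columns named HO were read as KO, since their means match the authors' KO means to within 3.33e-05 TPM. Of 56107 genes, 55487 have an Ensembl ID, and 55227 matched a GENCODE M21 symbol. The table has no read counts, so depth is unknown and intervals cover the spread between libraries only.

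Genes with at least 1 TPM in 3 or more of the 6 libraries compared were tested as log2(TPM + 1) with limma 3.58.1 in R 4.3.3. All 12 libraries entered 1 fit with a mean per group and 8 residual degrees of freedom, a trended prior and Benjamini-Hochberg adjustment over the 11078 genes. The fit was checked on simulated data. Single values, such as marker sums, were compared by exact 2-sided permutation in Python 3.11.15, which cannot go below p = 0.1 with 3 against 3. The 57 gene lists (1222 distinct genes, 1052 tested) and the members described were chosen with earlier results of these data known. Genes named are Lix1l, Cd36, the 15 largest rises and 15 largest falls without overlap, the 4 lowest p-values of each list, the 10 largest changes by diet in wild type and the 10 most apart from both wild-type groups, with other picks said to be so. Predicted and clone-based symbols were left out. Alternatives were other pseudocounts, filters, scalings, a GC and length correction, the 6 libraries alone, library weights, a prior without a trend, a replicate block, and leaving out each library. Some genes are not reported here.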

Additional observations from a re-analysis of the deposited data

How the results depend on the processing

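The 3261 calls in KO HFD against WT LFD became 5619 with library weights and 1592 to 3414 on leaving out 1 library. The 1186 higher calls became 712 with a stricter filter of 5 TPM, 2037 with median-ratio scaling, 1851 with quantile normalization, 1893 with the GC and length correction, 2825 with library weights and 542 to 1246 on leaving out 1 library. The 2075 lower calls became 897 to 2260 on leaving out 1 library, and 1304 with median-ratio scaling and KO HFD library 1 left out, an alternative chosen after seeing the data. The 4340 calls against WT HFD became 2867 with the stricter filter, 7125 with library weights and 2430 to 4530 on leaving out 1 library. The 2872 calls against KO LFD became 1802 with median-ratio scaling without KO HFD library 1 and 1650 to 2973 on leaving out 1 library. The 27 calls in WT HFD against WT LFD became 10 with no filter, 10 with the stricter filter, 48 with median-ratio scaling, 43 when scaled without mitochondrially encoded genes, 66 with the GC and length correction, 2719 with library weights, 51 with median-ratio scaling without KO HFD library 1, and 1 to 107 on leaving out 1 library. The causes of these moves were not tested.

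The 5385 genes with an interval within -1 to 1 became 3668 with a pseudocount of 0.1, 8468 with 5, 17432 with no filter and 2807 with the stricter filter. These settings change how many genes are tested or how far low genes are shrunk. The 1302 within a 1.5-fold change became 544 with a pseudocount of 0.1, 5065 with 5, 11838 with no filter, 625 with the stricter filter, 2217 with median-ratio scaling, 2117 with quantile normalization, 2431 with the GC and length correction, 620 in the fit of 6 libraries, 3309 with library weights and 584 to 1573 on leaving out 1 library.

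With median-ratio scaling the ratio of KO HFD to WT LFD marker sums moved to 2.31 for endothelial markers (1.97 as reported), 2.30 for matrix markers (1.97), 0.775 for cholangiocyte markers (0.655), 3.13 for neutrophil markers (2.62), 1.04 for albumin and carriers (0.888) and 0.840 for hepatocyte transcription factors (0.713). The cholangiocyte ratio was 0.691 without mitochondrially encoded genes. On leaving out 1 library the ratios ran from 1.83 to 2.21 for matrix, 0.580 to 0.714 for cholangiocyte, 0.728 to 1.59 for B and plasma cell (0.979 as reported) and 2.09 to 3.49 for neutrophil markers. Without the 1 gene that adds most to the difference, also chosen after seeing the data, the ratio was 1.33 for matrix, 0.717 for cholangiocyte, 2.17 for neutrophil, 1.54 for adipose (0.863 as reported) and 2.24 for muscle, pancreas and kidney markers (1.71). The muscle, pancreas and kidney ratio has no weight, since without Cela1 the sum was at most 0.3 TPM in any library (exact permutation p = 0.6). The median Spearman correlation of KO HFD with WT LFD libraries, 0.861, was 0.806 with the stricter filter.

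Among the genes named, the sign turned for Lix1l with library weights (-0.55), for Glul with median-ratio scaling (0.02, and 0.08 without KO HFD library 1), the GC and length correction (0.04) and without KO HFD library 1 (0.02), and for Pparg with median-ratio scaling (0.15, and 0.09 without KO HFD library 1), quantile normalization (0.09), scaling without mitochondrially encoded genes (0.02), the GC and length correction (0.19), library weights (0.07) and without WT LFD library 7 (0.05) or KO HFD library 1 (0.04). On leaving out 1 library the change ran from -0.40 to 0.02 for Glul and from -0.13 to 0.05 for Pparg. None of these 3 genes passed the test.

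KO HFD and WT LFD share no animal number, so a replicate block acts only through the other groups. Same-numbered libraries had correlations of -0.259 to 0.0972 after removing group means. With 3 libraries a group, these values cannot show whether such libraries share more than a number. The fit with the block called 3237 genes. TPM keeps no depth, so counting error at low levels could not be given.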
